A study of Mus musculus with 8 samples.

Results

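The regions described here are 299 long peaks of trimethylated lysine 9 of histone H3 (H3K9me3) that carried no peak of trimethylated lysine 20 of histone H4 (H4K20me3) in wild-type (WT) mouse embryonic fibroblasts. They were chosen from the deposited WT H3K9me3 list by measured values: a position on chromosomes 1 to 19, a length of at least 1500 bp, and no base in common with the WT H4K20me3 list. The whole list held 14596 peaks, 14185 of them on chromosomes 1 to 19, and 509 of those reached 1500 bp. The other 210 long peaks shared at least 1 base with H4K20me3. Length and the absence of H4K20me3 are therefore descriptions and not findings. KAP1 binding and the state in knockout cells were not used in the choice.

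Chromatin immunoprecipitation with sequencing (ChIP-seq) mapped KAP1 in WT fibroblasts, and both histone marks in WT fibroblasts and in fibroblasts labelled as KAP1 knockout (KO). The type of KO allele, the age of the embryos and the number of cultures are not stated in the sources used here. Each group was 1 library, so no test between genotypes was possible, no value has a replicate error, and a difference between genotypes cannot be told apart from a difference between these cultures or libraries. No KAP1 library of the KO cells was analysed, so the knockout itself was not checked. The KO H3K9me3 list was shorter, with 2862 peaks on chromosomes 1 to 19, and the KAP1 list held 361 there. The depth of the libraries is unknown, and an absent peak means only that none was called.

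H3K9me3 is a hallmark of constitutive heterochromatin and of silenced repeats. KAP1 (TRIM28) is brought to DNA by zinc finger proteins with a KRAB domain and acts as a scaffold for silencing factors such as the H3K9 methyltransferase SETDB1. H4K20me3 is laid down by the SUV4-20H enzymes, commonly downstream of H3K9me3 and its reader HP1, and the 2 marks often share the same heterochromatin. Long H3K9me3 stretches without an H4K20me3 peak are places where the lists show the first mark alone.

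These 299 regions were 2.11% of the H3K9me3 peaks on chromosomes 1 to 19 but covered 8.73% of their bases, 745 kb in all. Their median length was 1893 bp, against 459 bp for all peaks. The class from 1500 to under 2000 bp held 175 regions, the class from 2000 to under 3000 bp held 73, and the class from 3000 to under 5000 bp held 32. The remaining 19 were 5000 bp or longer and ran up to 12044 bp. Of all peaks of the same length, those without H4K20me3 were 67.3% from 1500 to under 2000 bp (95% interval 61.2 to 73.0%), 49.0% from 2000 to under 3000 bp (40.7 to 57.3%), 48.5% from 3000 to under 5000 bp (36.0 to 61.1%) and 55.9% from 5000 bp on (37.9 to 72.8%). Below 500 bp the share was 95.8%. Intervals are exact Clopper-Pearson intervals, and they cover counting error over peaks only. They treat peaks as independent, although many of the regions lie close together, and they are not tests between sets.

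The limits of the choice cut through a continuum. The shortest region taken in was 1500 bp long on chromosome 8 (86824317 to 86825816), with a score of 355, and the next was 1502 bp long on chromosome 11 (121803364 to 121804865), with a score of 199. The longest peaks left out for their length measured 1498 bp on chromosome 3 (88173502 to 88174999, score 412) and 1493 bp on chromosome 2 (167707254 to 167708746, score 321). None of these 4 met a KAP1 peak or a KO H3K9me3 peak. On the other limit, the regions closest to an H4K20me3 peak lay 44 bp away on chromosome 15 (100052181 to 100054140), 64 bp away on chromosome 4 (146245677 to 146247216) and 92 bp away on chromosome 4 (145701337 to 145709053). The long peaks left out with the smallest overlap shared 42 bp on chromosome 11 (59276451 to 59278366), 86 bp on chromosome 8 (123659598 to 123661561) and 120 bp on chromosome 19 (53478706 to 53480221). All positions are on build mm9 and count from 1.

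Scores are those the authors deposited, read here as the output of the peak caller MACS, and they rank peaks within a list only. Among the 299 regions it ran from 50.3 to 1784, with a median of 357. The median was 308 from 1500 to under 2000 bp, 432 from 2000 to under 3000 bp, 457 from 3000 to under 5000 bp and 597 from 5000 bp on. The 210 long peaks with H4K20me3 had higher medians in each of these classes, at 415, 674, 964 and 1555. Length and score did not go together everywhere. The longest region, 12044 bp on chromosome 4 (146704010 to 146716053), scored 656. The second in length, 11841 bp on chromosome 4 (147008621 to 147020461), scored 110, and the third, 11180 bp on chromosome 1 (90107999 to 90119178), scored 92.3. The next 2 in length lay on chromosome 4 (146768721 to 146779373 and 146640067 to 146650380). They were of nearly equal length, at 10653 and 10314 bp, but scored 88.1 and 1235. Long and weak regions therefore stood beside long and strong ones, and 20 of the 299 scored below 100.

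The highest-scoring region of all was 7230 bp long on chromosome 13 (13017624 to 13024853), with a score of 1784. It had no WT H3K9me3 peak within 5 kb, a KAP1 peak did not meet it, and no KO peak of either mark was called on it. After the chromosome 4 region with 1235 came 3958 bp on chromosome 11 (120617057 to 120621014, score 1195), 4484 bp on chromosome 13 (12916120 to 12920603, score 1112) and 4905 bp on chromosome 4 (146763377 to 146768281, score 1043). None of these 3 met a KAP1 peak or a KO peak of either mark.

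**Figure D1:**
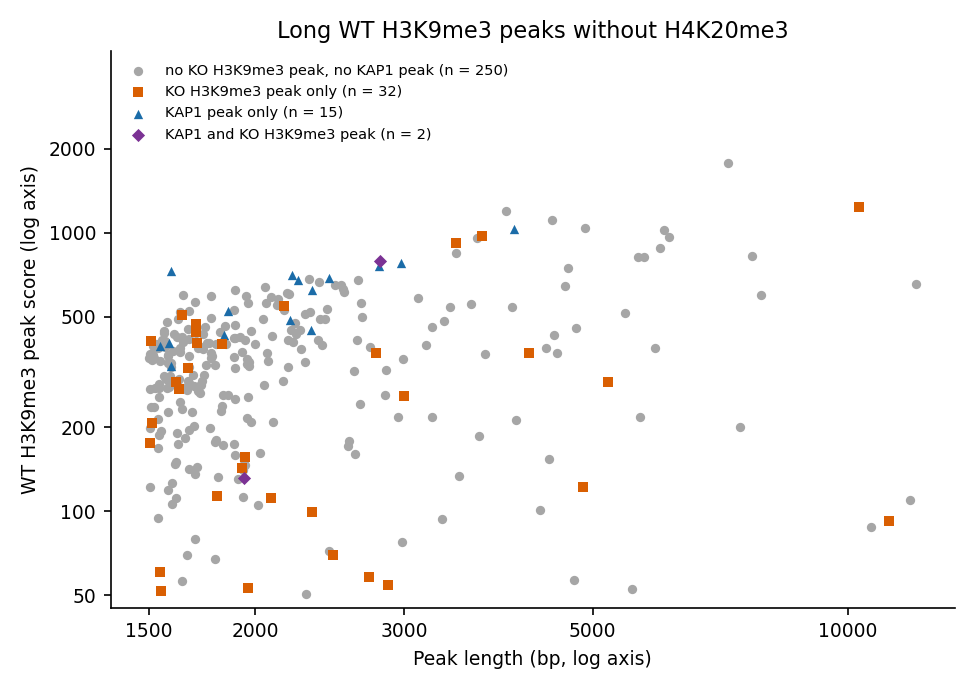
Length (bp, log axis) against WT H3K9me3 score (log axis) of the 299 long peaks without H4K20me3, 1 point each, marked by whether they share a base with a KAP1 peak or a KO H3K9me3 peak. The 17 regions on KAP1 lie at scores above 200 in all but 1 case and at lengths below 5000 bp, while the 34 regions on a KO peak run from a score of 51.9 to 1235, 15 of them below 200.

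Chromosome 4 held far more of these regions than of H3K9me3 peaks in general. It had 86 of the 299 (28.8%), against 9.04% of all H3K9me3 peaks on chromosomes 1 to 19. Long peaks in general were frequent there too, with 114 of the 509, and with 28 of the 210 that had H4K20me3. Next came chromosome 8 with 27 regions, chromosome 3 with 23, chromosome 17 with 22 and chromosome 13 with 20. Chromosomes 9 and 14 had 2 each, and 8 chromosomes had fewer than 10. Most of the regions on chromosome 4 lay in 2 adjoining windows of 1 Mb. The window from 146 to 147 Mb held 44 regions and 280 H3K9me3 peaks in all, while from 145 to 146 Mb there were 28 among 232 peaks. Together they had 72 of the 299 regions (24.1%) but 3.61% of all peaks, and 12 of the 19 regions of 5000 bp or more. They also held 19 of the 210 long peaks with H4K20me3. The third window by number was on chromosome 13, from 12 to 13 Mb, with 8 regions among 24 peaks.

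Away from the 2 densest windows the regions were more scattered. They fell into 167 further windows of 1 Mb, of which 136 held 1 region, 19 held 2 and 12 held 3 or more. After the third window came 147 to 148 Mb of chromosome 4 and 19 to 20 Mb of chromosome 8, with 7 each. The window from 13 to 14 Mb of chromosome 13 held 6. That from 147 to 148 Mb of chromosome 4 adjoins the 2 densest windows and is counted outside them here. The 16 regions that began before 4 Mb lay at the centromere end of mouse chromosomes, where the assembled sequence starts near 3 Mb. The first of them, 5216 bp on chromosome 11 (3000006 to 3005221), stood at the very start of the assembled sequence and scored 292. These 16 had a median score of 191, against 363 for the other 283.

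**Figure D2:**
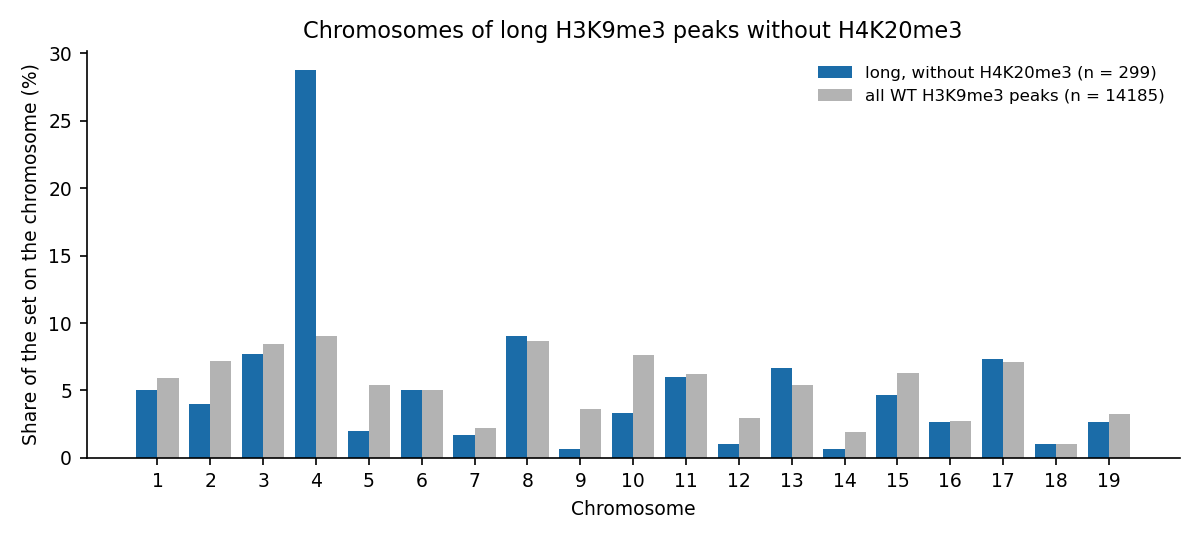
Share (%) of the 299 long peaks without H4K20me3 and of all 14185 WT H3K9me3 peaks that lies on each of chromosomes 1 to 19. Chromosome 4 stands out with 28.8% against 9.04%. It also held 28 of the 210 long peaks with H4K20me3, which are not drawn.

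Most of the regions were parts of broken stretches of H3K9me3. Another WT H3K9me3 peak lay within 5 kb of 223 of the 299 (74.6%, interval 69.3 to 79.4%), against 50.5% of all H3K9me3 peaks. When peaks within 1 kb were merged first, which gave 994 regions, the share was 35.1%. The median gap from the 299 regions to the nearest other WT H3K9me3 peak was 396 bp. It was 395.5 bp for long peaks with H4K20me3 and 5750 bp for shorter peaks without it. A neighbour within 5 kb lay on both sides of 115 regions, on 1 side of 108 and on neither side of 76. The nearest of these neighbours was a shorter peak without H4K20me3 for 161 of the 223, another of the 299 regions for 46, a long peak with H4K20me3 for 11 and a shorter one with H4K20me3 for 5. Outside the densest windows of chromosome 4, 67.0% had a neighbour within 5 kb, while inside them 71 of 72 did, as did 96.5% of all H3K9me3 peaks there.

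Joining WT H3K9me3 peaks across gaps of up to 5 kb put the 299 regions into 222 stretches. A single peak made up 76 of them, and 28 stretches held 2 or more of the regions, 105 in all. The longest spanned 218 kb on chromosome 4 (146527857 to 146745577) and held 86 peaks, 23 of them long and without H4K20me3. H3K9me3 peaks covered 67.3% of its length. Of its 86 peaks, 3 shared a base with H4K20me3, against 1260 of all 14185 H3K9me3 peaks on chromosomes 1 to 19. The choice of regions fixed this at 0 for 23 of the 86, so the count is a description only. The next stretch, 122 kb on chromosome 4 (145649216 to 145771366), held 37 peaks and 11 of the regions, with H3K9me3 over 76.8% of its length. On chromosome 13, a stretch of 33.4 kb (12900032 to 12933466) held 5 of the regions among 10 peaks.

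A single-peak stretch cannot hold H4K20me3, by the choice of regions. Of the 146 stretches with more than 1 peak, 28 held a WT H4K20me3 peak (19.2%), against 16.5% of all 2546 such stretches of WT H3K9me3 on chromosomes 1 to 19. Of the 223 regions in them, 84 shared their stretch with H4K20me3 (37.7%). The stretches with most regions were among these. The one of 218 kb held 4 WT H4K20me3 peaks, the one of 122 kb held 7 and the one on chromosome 13 held 2. The median gap from a region to the nearest WT H4K20me3 peak was 39.0 kb, with 9 regions within 1 kb of one, 37 within 5 kb and 61 more than 100 kb away. For shorter H3K9me3 peaks without H4K20me3 the median gap was longer, at 73.6 kb. These gaps start from peaks chosen for not touching H4K20me3 and are a description only.

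**Figure D3:**
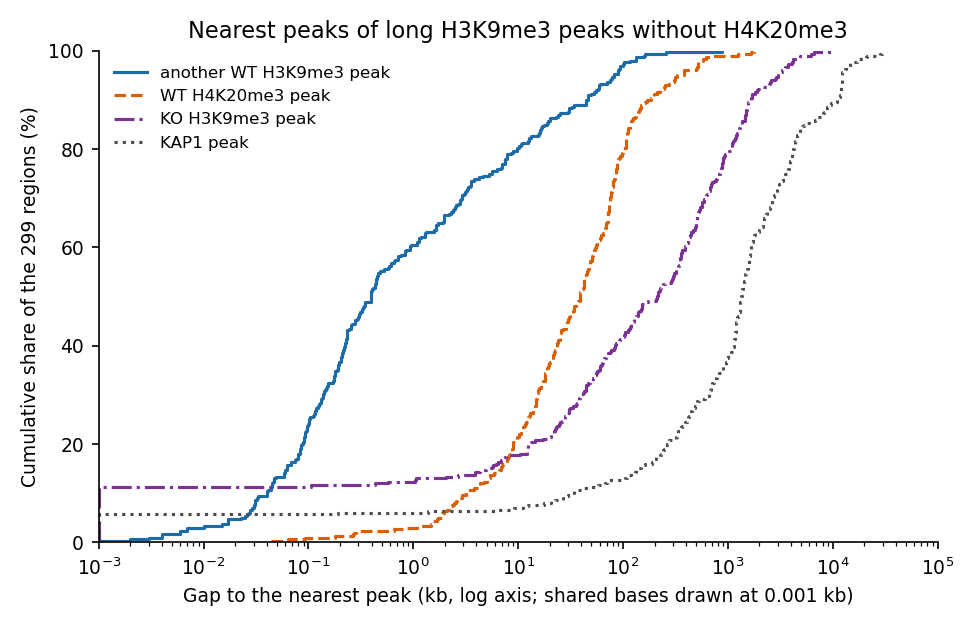
Cumulative share (%) of the 299 regions by the gap (kb, log axis) to the nearest other WT H3K9me3 peak, WT H4K20me3 peak, KO H3K9me3 peak and KAP1 peak. The median gaps are 0.396 kb, 39.0 kb, 213 kb and 1347 kb, and the curves for KO H3K9me3 and KAP1 begin at the 34 and 17 regions that share bases with those peaks.

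KAP1 was found on few of the regions. A KAP1 peak shared at least 1 base with 17 of 299 (5.69%, interval 3.35 to 8.95%), against 1.30% of all H3K9me3 peaks on chromosomes 1 to 19. The share was 15.7% (11.1 to 21.4%) among the 210 long peaks with H4K20me3 and 0.832% (0.681 to 1.01%) among the 12626 shorter peaks without it. The interval of the 299 regions lay below the first and above the second, and the differences have no replicate check. At WT scores from 500 to under 1000, KAP1 was on 15.8% of the regions and 16.7% of long peaks with H4K20me3. From 200 to under 500 it was on 3.57% and 8.64%, and from 1000 on it was on 1 of 7 and 11 of 31. The part of score in the difference between the 2 long sets was not tested. The share of bases under KAP1 was 1.55% for the regions, 4.56% for long peaks with H4K20me3 and 0.546% for shorter peaks without. The shorter peaks were not alike: from 1000 to under 1500 bp without H4K20me3, KAP1 was on 4.33% of peaks, close to the 4.00% of the regions from 1500 to under 2000 bp. With at least 50% of the region covered, the share of the 299 on KAP1 was 1.00%. Of the regions without a KAP1 peak on them, only 1 lay within 1 kb of one, and 261 of the 299 were more than 100 kb from any.

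Among the regions, KAP1 did not increase steadily with length. It was on 7 of 175 from 1500 to under 2000 bp (4.00%, interval 1.62 to 8.07%), on 9 of 73 from 2000 to under 3000 bp (12.3%, 5.80 to 22.1%) and on 1 of 32 from 3000 to under 5000 bp. It was on none of the 19 regions of 5000 bp or more (interval 0 to 17.6%). Of these 19, 12 lay in the 2 densest windows of chromosome 4, and length was not separated from position. Long peaks with H4K20me3 had KAP1 on 6 of 15 in that longest class (40.0%, 16.3 to 67.7%). Of the 17 regions with KAP1, 16 had a WT score of at least 200, and their median score was 622, against 348 for the 282 without. None of them lay in the 2 densest windows of chromosome 4, with 0 of 72 regions (interval 0 to 4.99%), where KAP1 was on 1 of all 512 H3K9me3 peaks (0.195%). Without those windows KAP1 was on 7.49% of 227 regions.

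The KAP1 peak was a small part of the region. Of the 17 KAP1 peaks, 14 lay wholly inside the H3K9me3 region, and their median length was 614 bp. The median distance between the centres of the KAP1 peak and the region was 399.5 bp, where the regions on KAP1 had a median length of 2211 bp. The strongest KAP1 peak among them, with a KAP1 score of 1165 and 1864 bp long, lay in 2804 bp of H3K9me3 on chromosome 6 (30686228 to 30689031, WT score 757). It was followed by regions on chromosome 2 (84428294 to 84429878, KAP1 score 651), chromosome 13 (71158014 to 71159604, KAP1 score 502), chromosome 8 (94323186 to 94325515, KAP1 score 425) and chromosome 8 (125388138 to 125391113, KAP1 score 324). None of these 5 had a peak of either mark in KO. The one on chromosome 13 was the most isolated of all 299, with no other H3K9me3 peak within 876 kb.

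**Figure D4:**
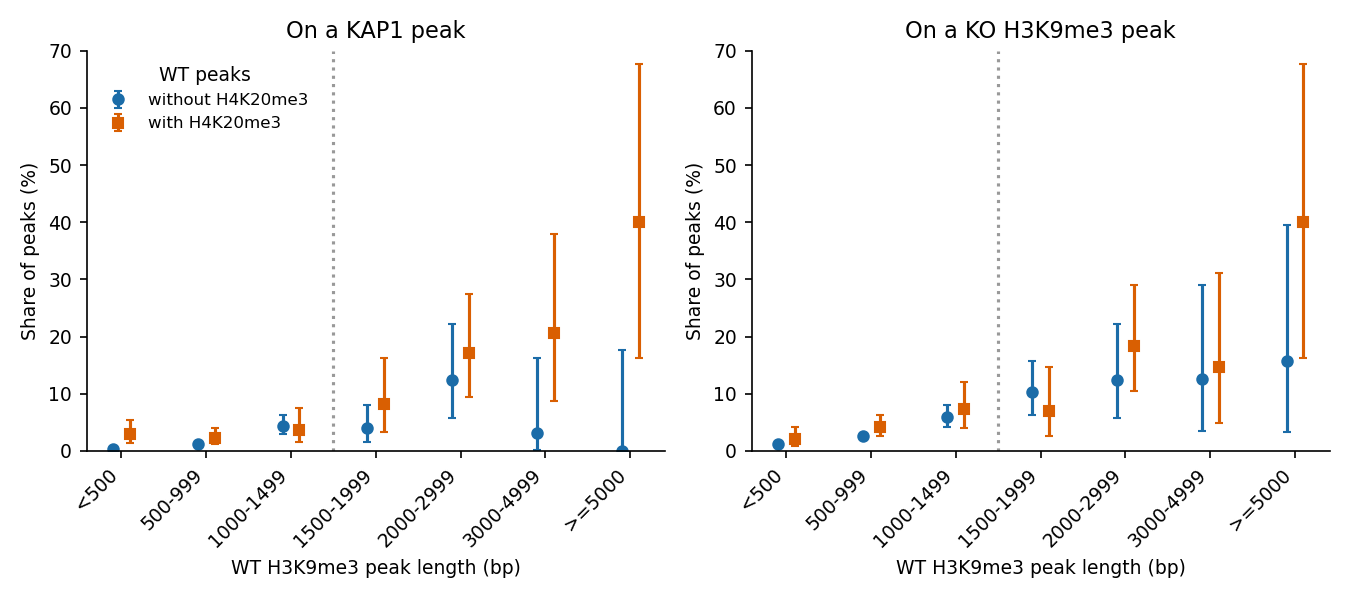
Share (%) of WT H3K9me3 peaks on chromosomes 1 to 19 that meet a KAP1 peak (left) or a KO H3K9me3 peak (right), by length class (bp), for peaks without and with WT H4K20me3. Bars are exact 95% intervals over peaks, and the dotted line marks 1500 bp. Without H4K20me3 the KAP1 share is 12.3% from 2000 to under 3000 bp and 0% from 5000 bp on, while the KO share goes from 10.3 to 15.8% over the 4 classes above the line.

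In the KO list, 34 of the 299 regions met an H3K9me3 peak (11.4%, interval 8.00 to 15.5%) and are called kept. The other 265 had none and are called lost. Of all WT H3K9me3 peaks on chromosomes 1 to 19, 2.42% were kept. With only scores of 100 or more used in each list, 22 of the 330 regions then chosen were kept (6.67%). With WT peaks within 1 kb merged first, 66 of 994 were (6.64%). These sets are not the 299 regions, and the share of all peaks was not recomputed in the same way. At the main settings the share was 14.8% (10.3 to 20.3%) among long peaks with H4K20me3, and its interval overlaps that of the 299 regions. It was 1.86% (1.63 to 2.11%) among shorter peaks without H4K20me3, whose interval lies below that of the regions. Counted in bases, KO peaks covered 9.54% of the regions, 10.7% of the long peaks with H4K20me3 and 1.82% of the shorter peaks without. In these lists the regions were thus kept more often than shorter peaks, and less often than long peaks with H4K20me3, with intervals that overlap. No test between the sets was run, and neighbouring regions can lie under 1 KO peak, so the regions are not independent counts. The part of peak length in this was not tested.

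Among peaks without H4K20me3, the share kept was higher in longer classes. It was 1.13% below 500 bp, 2.60% from 500 to under 1000 bp and 5.88% from 1000 to under 1500 bp. Above the length limit it was 10.3% from 1500 to under 2000 bp (18 of 175, interval 6.21 to 15.8%), 12.3% from 2000 to under 3000 bp (9 of 73), 12.5% from 3000 to under 5000 bp (4 of 32) and 15.8% from 5000 bp on (3 of 19, interval 3.38 to 39.6%). The intervals of these last 4 classes overlap one another.

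In these lists, weak regions were kept more often than strong ones. Of the 67 regions with a WT score below 200, 15 were kept (22.4%, interval 13.1 to 34.2%), and of the 232 with a score of at least 200, 19 were (8.19%, 5.00 to 12.5%). The shares were 7.74% for scores from 200 to under 500 (13 of 168), 8.77% from 500 to under 1000 (5 of 57), and 1 of 7 from 1000 on. In bases, KO peaks covered 23.3% of the weakest class and 5.35% of the regions scoring at least 200. Outside the densest windows of chromosome 4 and from 4 Mb of each chromosome on, 12 of 34 regions below 200 were kept (35.3%, 19.7 to 53.5%) and 12 of 177 at or above it (6.78%, 3.55 to 11.5%). In the densest windows, none of 25 regions below 200 was kept, so this order did not hold there. The score classes were chosen with results of these data known.

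The share kept was also set out by position. In the 2 densest windows of chromosome 4, 3 of 72 regions were kept (4.17%, interval 0.868 to 11.7%), and elsewhere 31 of 227 (13.7%, 9.47 to 18.8%). These intervals overlap. In bases the shares were 1.58% and 13.4%. All H3K9me3 peaks were kept at 2.15% in the 2 windows and 2.43% elsewhere, and long peaks with H4K20me3 at 15.8% (3 of 19) and 14.7%. At the chromosome starts, before 4 Mb, 7 of 16 regions were kept (43.8%, 19.8 to 70.1%), against 27 of 283 further in (9.54%, 6.38 to 13.6%), and of all H3K9me3 peaks before 4 Mb 16.2% were kept. Of the 7 windows with 3 regions, 2 had all 3 kept, 2 had 2 kept, 2 had 1 kept and 1 had none. Those with all 3 kept, named for that outcome, were from 67 to 68 Mb of chromosome 7 and from 93 to 94 Mb of chromosome 3. None of the 8 regions from 12 to 13 Mb of chromosome 13 was kept.

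Kept regions lay where the KO list was dense. The median number of KO H3K9me3 peaks in the window of 1 Mb around a region was 10 for the 34 kept regions and 1 for the 265 lost ones. A kept region adds at least 1 KO peak to its own window or the next, so these numbers are not independent of the call. In 16 of 34 cases the window of a kept region held at least as many KO as WT peaks, and in 10 of 265 cases that of a lost region did. The window from 67 to 68 Mb of chromosome 7 had 16 WT and 25 KO peaks. By contrast, the window from 146 to 147 Mb of chromosome 4 had 280 WT and 7 KO peaks. Lost regions had a median gap of 327 kb to the nearest KO H3K9me3 peak, and 174 of 265 were more than 100 kb away. They were not farther off than other H3K9me3 peaks. The median gap was 442 kb for long peaks with H4K20me3 and 700 kb for shorter peaks without it, kept ones included.

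Where a region was kept, the KO peak usually covered most of it. The median share of its length under KO H3K9me3 was 93.6%, with a lowest value of 15.8%, 26 of 34 regions at 50% or more and 10 covered whole. The 34 regions met 39 KO peaks in 41 pairs, and in 16 of the pairs the KO peak was longer than the region. The KO score was highest on chromosome 18, where 1 KO peak of 5600 bp with a score of 1005 spanned 1 region wholly (3116853 to 3118520, WT score 326) and nearly all of its neighbour (3114969 to 3116675, WT score 401). Likewise, 1 KO peak of 9745 bp on chromosome 7 with a score of 989 took in both 67006419 to 67009192 (WT score 370) and 67009320 to 67011793 (WT score 69.4). The next in KO score, on chromosome 1 (192125234 to 192126872, WT score 506), lay whole in a KO peak of 3178 bp with a score of 898. The neighbouring regions on chromosomes 18 and 7 thus lay wholly or nearly so under 1 longer KO peak. The reverse also occurred, as another region on chromosome 7 (67027834 to 67029773) met 3 KO peaks.

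The longest kept regions differed in how much of them the KO peak covered. That on chromosome 1 (90107999 to 90119178) was covered whole by a KO peak of 11436 bp with a score of 193. The region of 10314 bp on chromosome 4 (146640067 to 146650380), second in WT score among the 299, was covered over 22.8% of its length, with a KO score of 168. The strongest lost regions were the 4 without a KO peak named above on chromosomes 13, 11 and 4, followed by 4041 bp on chromosome 17 (61618109 to 61622149, WT score 1027), which carried a KAP1 peak of score 257.

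The share kept was close with and without a KAP1 peak, and the relation was not tested. Of the 17 regions with KAP1, 2 were kept (11.8%, interval 1.46 to 36.4%), and of the 282 without, 32 were (11.3%, 7.89 to 15.6%). The kept ones with KAP1 were on chromosome 2 (174123453 to 174126262), with 15.8% of its length under KO H3K9me3 and a KAP1 score of 99.2, and on chromosome 7 (67027834 to 67029773), with 94.3% and a KAP1 score of 58.9. They were chosen for mention after their values were seen. With 17 regions the interval is wide, so a difference in either direction could be missed. A KAP1 peak lay on 15 of the 265 lost regions (5.66%), near the 5.69% of all 299 regions. The other 250 lost regions had none.

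**Figure D5:**
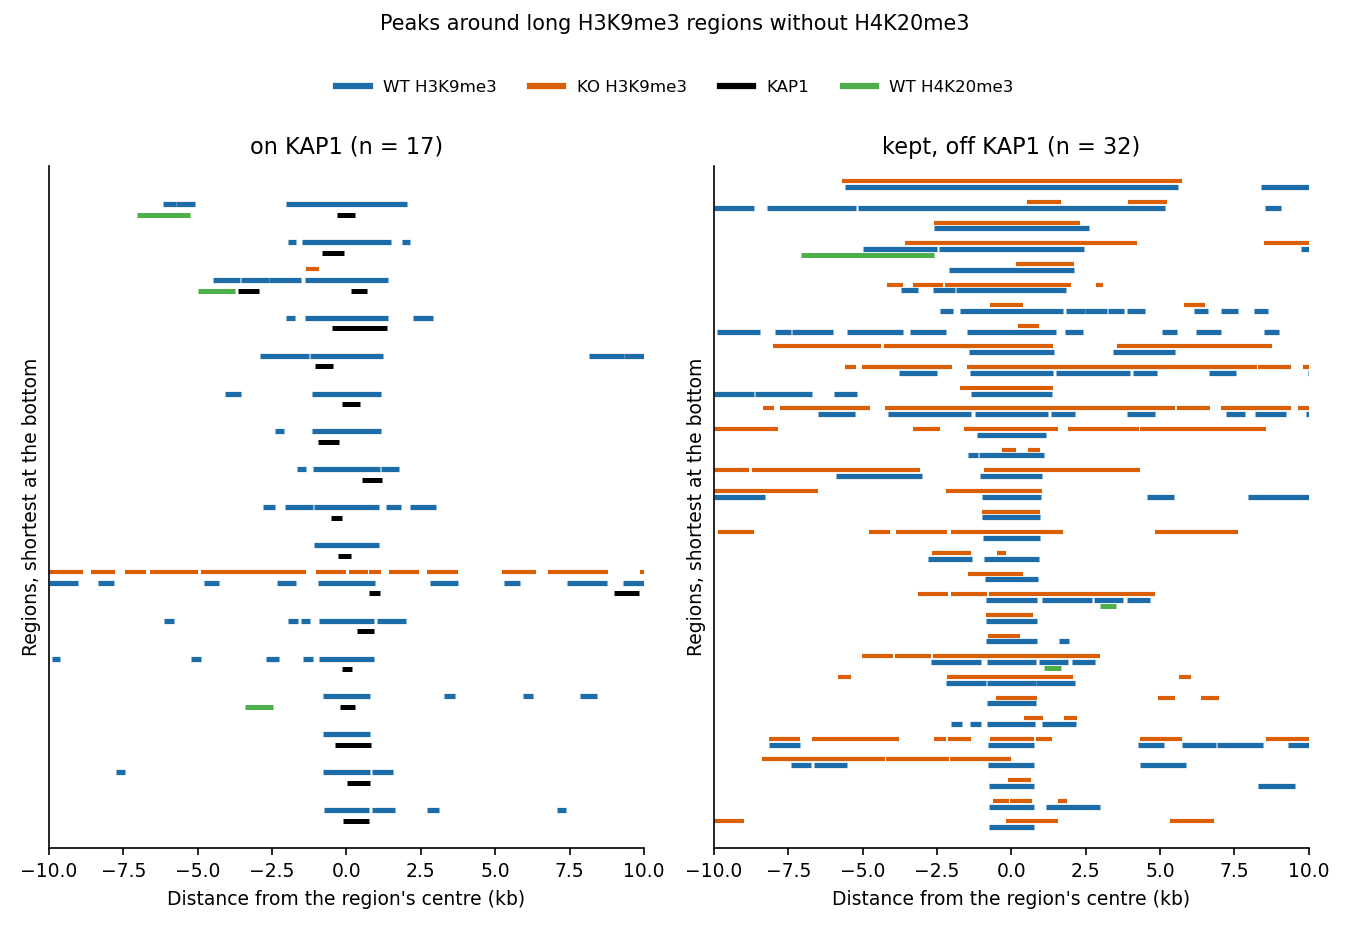
Peaks within 10 kb of the centre of each of the 17 regions on KAP1 (left) and the 32 kept regions off KAP1 (right), 1 row a region, by distance from its centre (kb), with WT H3K9me3, KO H3K9me3, KAP1 and WT H4K20me3 peaks as bars. KAP1 peaks are short and mostly inside the region, while KO H3K9me3 peaks often reach past its ends.

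H4K20me3 peaks of the KO list lay on 12 of the 299 regions (4.01%, interval 2.09 to 6.91%), although the choice required that none had one in WT. Of all H3K9me3 peaks on chromosomes 1 to 19, 1.04% met a KO H4K20me3 peak, and of shorter peaks without WT H4K20me3 0.333% did (0.240 to 0.449%). Counted in bases, KO H4K20me3 covered 1.52% of the regions, 1.31% of all H3K9me3 peaks and 0.346% of the shorter peaks without. By bases the regions thus lay close to all peaks, and the part of peak length was not tested. The share of the 299 regions that met a KO H4K20me3 peak was 1.34% with at least 50% of the region covered. After merging WT peaks within 1 kb it was 1.91% of the 994 regions then chosen. The KO H4K20me3 peaks on the 299 regions were mostly weak, with a median score of 74.6 and 5 of 12 pairs at a score of 100 or more. The strongest scored 491 on chromosome 8 (19895742 to 19900611) but shared only 439 bp with the region, which also lay 181 bp from a WT H4K20me3 peak. Next were regions on chromosome 4 (145680895 to 145682805, KO score 121, and 146735751 to 146737457, KO score 119) and the neighbouring regions on chromosome 18 named above, under 1 KO peak of score 104. A KO H4K20me3 peak lay on 5 of the 34 kept regions and on 7 of the 265 lost ones. None of the 17 regions with KAP1 had one. In the 2 densest windows of chromosome 4, 5 of 72 regions did (6.94%, interval 2.29 to 15.5%), as did 22 of all 512 H3K9me3 peaks there (4.30%, 2.71 to 6.43%).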

How the data were processed

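Peak lists of 5 ChIP libraries were analysed, each the only library of its group, and 3 input libraries were not used here. The build was mm9 and the tools were CASAVA 1.82, Bowtie2 2.2.1 and MACS 1.4, per the submitters' processing notes. Call parameters and the controls of the histone lists are not stated there. Each deposited line holds a position, a name and a score made by the authors, in a unit that the files do not state. Scores were used for ranking and classes within a list.

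Overlaps (at least 1 bp), gaps and stretches were computed in Python 3.11.15 (pandas 2.3.3, numpy 2.4.6), checked on simulated lists with known partners, and gave the same calls as bedtools 2.31.1. Intervals came from scipy 1.17.1 and figures from matplotlib 3.10.9. Read depth per sample is unknown. No gene annotation or sequence of build mm9 was used, so regions are given by position.

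The regions, classes and tests were chosen with earlier results of these data known. Named regions are up to 5 each by length, by WT score, by KAP1 score, by KO score of either mark and by WT score among the lost, those at the limits of the choice, and the 3 windows with most regions. Windows on chromosomes 3 and 7 and the kept regions with KAP1 were named after their values were seen. Alternatives varied the length limit, distance to H4K20me3, score minimum, overlap rule, merging and chromosomes.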

Additional observations from a re-analysis of the deposited data

Results flagged for a closer look

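Sequence outside chromosomes 1 to 19, which no comparison above used, held 54 long H3K9me3 peaks without H4K20me3. Of these, 48 lay on unplaced sequence and 6 on chromosome X. In KO, 38 of the 54 met an H3K9me3 peak (70.4%, interval 56.4 to 82.0%), 34 of them on unplaced sequence and 4 on chromosome X, against 11.4% of the 299 regions on chromosomes 1 to 19. The difference was not tested. The share kept among all 411 WT H3K9me3 peaks outside chromosomes 1 to 19 was not computed. Whether long peaks without H4K20me3 differ from other peaks there is therefore not shown.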

How the results depend on the processing

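The number of regions was 945 with a length limit of 1000 bp, 124 with 2000 bp, 51 with 3000 bp and 994 with peaks within 1 kb merged first. The share kept was 7.62% with 1000 bp, 6.67% when all lists were limited to scores of 100 or more (22 of 330) and 6.64% after merging. The share on KAP1 was 1.96% with 3000 bp (1 of 51) and 1.00% where at least 50% of the region had to be covered, which short KAP1 peaks seldom reach. The share on KO H4K20me3 was 1.34% with 50% covered and 1.91% after merging. The share with a neighbour within 5 kb was 66.8% with 1000 bp, 80.6% with 2000 bp, 86.3% with 3000 bp, 56.4% with scores of 100 or more, 35.1% after merging, which itself joins neighbours, and 67.0% without the 2 densest windows, an alternative added after the data were seen. It was 60.5% for gaps of up to 1 kb and 86.0% for gaps of up to 20 kb. The other 35 of 54 values stayed within the main interval, or within 1.5 times the main count. No paired analysis was possible because each group is 1 library.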

Other observations

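The KO list held long H3K9me3 peaks of its own. Of its 2862 peaks on chromosomes 1 to 19, 185 (6.46%) reached 1500 bp, against 3.59% of the WT list. Of these 185, 156 (84.3%) met no KO H4K20me3 peak, against 58.7% of the 509 long WT peaks with no WT H4K20me3 peak. The KO H4K20me3 list was the shorter one, with 8673 peaks on chromosomes 1 to 19 against 11104 in WT. The part of list size in these shares was not tested. Of the 156, 17 lay on one of the 299 WT regions, 44 lay on any WT H3K9me3 peak of chromosomes 1 to 19, and 112 lay where the WT list had none. The share on a WT peak was 28.2% for these 156 and 11.3% for all 2862 KO peaks on chromosomes 1 to 19.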
